A study of Nicotiana tabacum with 6 samples.

Results

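Of 39825 loci with transcript levels in these tobacco libraries, 8 carried the protein description putative nuclease HARBI1, and they are described here copy by copy. A locus was taken when that description stood in its best protein match. The loci lie on chromosomes 2, 3, 9, 12, 14, 15, 18 and 19 of the Niben261 genome. The copies on chromosome 12 (Niben261Chr12g0682002) and chromosome 19 (Niben261Chr19g0054002) were chosen by their FPKM in this contrast, in which they rose strongly, so their rise is given as a description with no test. The other 6 copies share the description only and were not chosen for their values.

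HARBI1 is named for the transposase of PIF/Harbinger elements, a superfamily of cut-and-paste DNA transposons that is widespread in plants. In vertebrates, HARBI1 is a single-copy gene derived from such a transposase. In rice, mobilisation of a Harbinger element needs both the transposase and a second element-encoded protein with a Myb/SANT-like domain, and in Arabidopsis the Harbinger-derived protein ALP1 is found with Polycomb repressive complex 2. A HARBI1 description can therefore belong to a transposon copy or to a host gene derived from one, and the table does not say which applies to these 8 loci.

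The RNA came from explants after 2 weeks of culture with the synthetic auxin NAA at 0.1 mg/L (low NAA) or at 0.5 mg/L (high NAA), with 3 libraries for each treatment. According to the methods of the study, the explants were cotyledon pieces of Nicotiana benthamiana, and many explants were harvested together for each treatment. The tobacco callus and shoot induction medium of the study held the cytokinin 6-BA, kanamycin and Timentin at both NAA concentrations. For the 2-week explants only the NAA concentration is named, so whether their medium held these additions is not stated. Whether these explants had been exposed to Agrobacterium is not stated for the libraries described here. The labels name the plant Nicotiana tabacum, whereas the locus identifiers belong to the N. benthamiana genome. The labels give no genotype, line or age, and no culture without NAA was analysed here. The labels do not say that the 3 libraries of a treatment came from separate cultures, so the p-values measure the spread between these libraries only.

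The summed FPKM (fragments per length of transcript, scaled to the fragments of the library) of a library was 1140994 to 1155639 at low NAA and 986722 to 1015420 at high NAA. Relative depth, estimated from the steps of low values, was 0.740 in replicate 3 at low NAA and 0.993 to 1.04 in the other libraries. Of the 32443 loci that were tested, those with a mean of 0.5 FPKM or more, 1051 (3.24%) were up-regulated and 851 (2.62%) down-regulated at high NAA, 5.86% together, by an adjusted p under 0.05 in limma and a log2 fold change of at least 1 in size. Markers of green tissue were lower at high NAA: of 46 tested loci for chlorophyll a-b binding proteins and the Rubisco small subunit 34 were down-regulated, and none was up-regulated, with a summed FPKM of 7632 to 8442 at low NAA against 2860 to 3850 at high NAA. Of 26 tested loci for mitotic cyclins and histones H3 and H4, 3 were down-regulated (0 after rescaling to TPM), and the summed FPKM of the list was 2630 to 2991 against 1362 to 1817. In these bulk samples fewer cells of a type and less RNA per cell cannot be told apart, and the part of these marker levels in the HARBI1 values was not tested.

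At low NAA the 8 copies spanned a wide range of levels, and the chromosome 12 and 19 copies did not stand out. FPKM, a level per transcript length that allows copies to be compared, was highest for the chromosome 9 copy (22.9 ± 1.60, SD, n = 3 here and below). It was followed by the copies on chromosome 12 (18.5 ± 1.06), chromosome 19 (15.9 ± 0.889) and chromosome 18 (15.5 ± 0.166). Next came the copies on chromosome 3 (5.03 ± 0.831), chromosome 2 (3.74 ± 0.146), chromosome 15 (1.16 ± 0.179) and chromosome 14 (0.55 ± 0.161). Of the neighbours in this order, only the chromosome 19 and 18 copies had overlapping libraries. At high NAA the chromosome 19 and 12 copies led and overlapped each other, the chromosome 9 copy was next, and the chromosome 18 copy followed without overlap. Further down, the chromosome 2 copy overlapped the chromosome 3 copy, and the chromosome 15 copy overlapped the chromosome 14 copy.

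**Figure D1:**
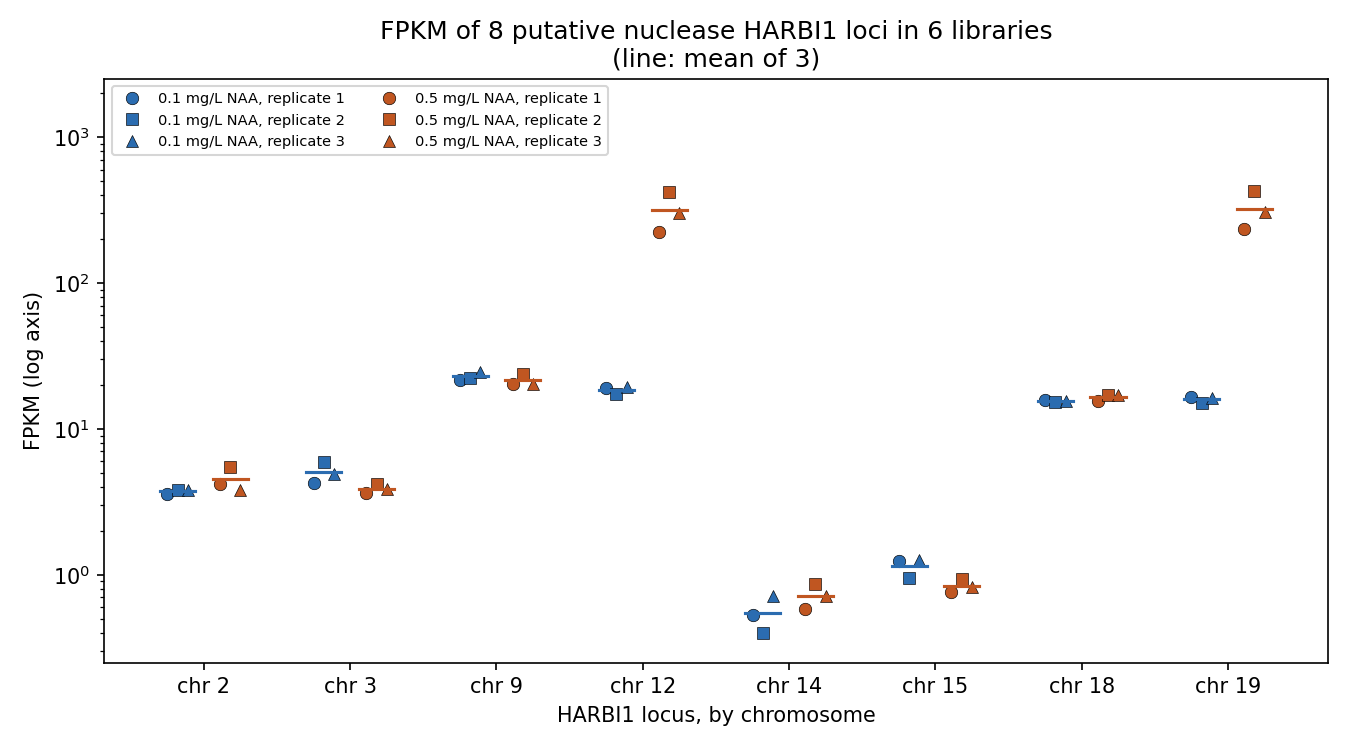
FPKM of the 8 HARBI1 loci (log axis) by chromosome in the 3 libraries at low NAA (blue) and the 3 at high NAA (orange), with symbols for replicates and a line at each mean. The copies on chromosomes 12 and 19 sit between 14.94 and 19.25 at low NAA and between 222.76 and 424.92 at high NAA, while the other 6 copies lie between 0.40 and 24.70 over all libraries.

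The chromosome 19 copy had an FPKM of 16.66, 14.94 and 16.19 at low NAA (replicates 1, 2 and 3 in this order here and below), and of 234.90, 424.92 and 305.65 at high NAA. Its mean at high NAA (321.8 ± 96.0) was 20.2 times that at low NAA, and its log2 fold change on the log2(FPKM + 1) scale (4.21, SE 0.19) ranked 1 of the 32443 loci tested. The chromosome 12 copy had an FPKM of 18.95, 17.29 and 19.25 at low NAA, and of 222.76, 421.98 and 303.94 at high NAA. For that copy the mean at high NAA (316.2 ± 100.2) was 17.1 times that at low NAA, and its log2 fold change (3.98, SE 0.20) ranked 4. In both copies every library at high NAA lay far above every library at low NAA, which is the property the copies were chosen for.

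The rise took both copies from the middle of the transcriptome to its most abundant loci. By mean level over the tested loci, the chromosome 19 copy stood at rank 12583 (the upper 38.8%) at low NAA and at rank 314 (the upper 0.968%) at high NAA. Corresponding ranks of the chromosome 12 copy were 11280 (the upper 34.8%) and 323 (the upper 0.996%). Together the 2 copies made up 0.00279 to 0.00311% of the summed FPKM of a library at low NAA and 0.0453 to 0.0834% at high NAA.

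Both copies followed the same order of libraries at high NAA, lowest in replicate 1 and highest in replicate 2. Replicate 2 exceeded replicate 1 by 1.81 times for the chromosome 19 copy and by 1.89 times for the chromosome 12 copy. The SD of log2(FPKM + 1) at high NAA was 0.43 and 0.46, against a median of 0.15 over all tested loci and of 0.30 over the up-regulated loci. At low NAA it was 0.08 in both copies, against a median of 0.10 over all tested loci. Both copies were thus steady between libraries at low NAA and uneven between libraries at high NAA. With the FPKM as deposited, all 8 HARBI1 copies had their highest value at high NAA in replicate 2, as did 35.1% of all tested loci and 36.8% of the up-regulated loci. For the chromosome 18 copy replicate 2 (17.11) lay just above replicate 3 (16.99), and rescaling the libraries to the same total reverses this order. Of these 8 copies 6 had not been chosen for their values, but the copies in a library are not replicates, and no test was made.

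Within a library the chromosome 19 and 12 copies were close to equal at both NAA concentrations. Their FPKM ratio (chromosome 19 over chromosome 12) was 0.879, 0.864 and 0.841 at low NAA, and 1.05, 1.01 and 1.01 at high NAA. The chromosome 12 copy was thus slightly higher in each library at low NAA and slightly lower in each at high NAA, a shift of 0.25 in the mean log2 ratio that is small beside the rise itself. How reads that match several copies were assigned is not given in the sources used here, and the sequences of the copies were not compared, so the separate values of these copies are uncertain if the copies are near-identical.

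With the FPKM as deposited, none of the other 6 copies passed the test. Their mean FPKM at high NAA was 0.73 (chromosome 15) to 1.31 times (chromosome 14) that at low NAA. With 3 libraries for each treatment, a failed test does not show that a level was unchanged. By limma, 0 of 6 were up-regulated or down-regulated, 0 of 6 had an adjusted p under 0.05, and 0 of 6 an unadjusted p under 0.05, whereas 41.9% of all tested loci had an adjusted p under 0.05. The FPKM summed over these 6 copies was 46.95 to 50.85 at low NAA (mean 48.9 ± 1.95) and 45.19 to 52.22 at high NAA (mean 48.0 ± 3.71), so the treatments overlapped. Summed over all 8 copies, FPKM was 82.56, 81.06 and 86.29 at low NAA, and 502.85, 899.12 and 656.26 at high NAA. The chromosome 12 and 19 copies held 43.1, 39.8 and 41.1% of that sum at low NAA and 91.0, 94.2 and 92.9% at high NAA.

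The chromosome 9 and 18 copies were the most abundant of the 6. For the chromosome 9 copy (Niben261Chr09g1300004), FPKM was 21.63, 22.36 and 24.70 at low NAA, and 20.46, 23.64 and 20.47 at high NAA. The treatments overlapped, and the log2 fold change was -0.09 (SE 0.09, 95% interval -0.30 to 0.13, limma adjusted p = 0.478). For the chromosome 18 copy (Niben261Chr18g0187009), FPKM was 15.68, 15.35 and 15.48 at low NAA, and 15.51, 17.11 and 16.99 at high NAA. Replicate 1 at high NAA fell among the values at low NAA, and the log2 fold change was 0.09 (SE 0.08, 95% interval -0.09 to 0.27, limma adjusted p = 0.398). The sign of the chromosome 9 copy and whether the adjusted p of the chromosome 18 copy falls under 0.05 depend on how the libraries are scaled. With every library rescaled to the same total (TPM), which moved the median over all loci from 0.02 to 0.19 on the log2 scale, the chromosome 9 copy changed sign to 0.10 (limma adjusted p = 0.395) and the chromosome 18 copy reached 0.27 (limma adjusted p = 0.0267).

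The chromosome 2 and 3 copies had intermediate levels and differed in direction. For the chromosome 2 copy (Niben261Chr02g0170011), FPKM was 3.57, 3.84 and 3.80 at low NAA, and 4.22, 5.50 and 3.82 at high NAA. Replicate 3 at high NAA lay below replicate 2 at low NAA, and the log2 fold change was 0.21 (SE 0.14, 95% interval -0.11 to 0.53, limma adjusted p = 0.259). For the chromosome 3 copy (Niben261Chr03g1133001), FPKM was 4.29, 5.93 and 4.88 at low NAA, and 3.66, 4.16 and 3.85 at high NAA. Every library of the chromosome 3 copy was lower at high than at low NAA, but the log2 fold change of -0.30 (SE 0.13, 95% interval -0.60 to 0.0087) did not pass the test (limma adjusted p = 0.107).

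The chromosome 14 and 15 copies were the weakest. For the chromosome 14 copy (Niben261Chr14g0660005), FPKM was 0.53, 0.40 and 0.72 at low NAA, and 0.58, 0.87 and 0.71 at high NAA. Its treatments overlapped, and the log2 fold change was 0.15 (SE 0.16, 95% interval -0.23 to 0.53, limma adjusted p = 0.489). For the chromosome 15 copy (Niben261Chr15g0726003), whose description marks it as a protein of low quality, FPKM was 1.25, 0.95 and 1.27 at low NAA, and 0.76, 0.94 and 0.83 at high NAA. All 3 libraries at high NAA were lower than those at low NAA, the nearest by 0.01, with a log2 fold change of -0.22 (SE 0.15, 95% interval -0.56 to 0.12, limma adjusted p = 0.252). The treatments thus did not overlap in 2 of the 6 copies, both lower at high NAA, against 54.7% of all tested loci that did not overlap in either direction and 25.9% that were lower without overlap. After rescaling to TPM both of these copies overlapped between treatments, and the chromosome 2 and 18 copies were higher at high NAA without overlap.

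The loci around each copy gave a grouping of the copies that did not use their values. Identifiers of this genome carry the chromosome and a 4-digit window along it, and the descriptions of loci up to 10 windows to either side were compared between the 28 pairs of copies. Around the chromosome 12 copy (28 loci) and the chromosome 19 copy (26 loci), 10 descriptions were shared. Around the chromosome 14 and 15 copies 20 descriptions were shared, around the chromosome 2 and 3 copies 7, and around the chromosome 9 and 18 copies 0. Outside these pairs the chromosome 3 and 15 copies shared 2 descriptions, the chromosome 2 and 15 copies 1, the chromosome 3 and 14 copies 1, and the remaining pairs 0. The copies therefore fell into 3 pairs with like surroundings (12 and 19, 14 and 15, 2 and 3), while the chromosome 9 and 18 copies had none. N. benthamiana is an allotetraploid, in which most genes have a counterpart from the other parental genome, but whether these pairs are such counterparts was not tested. The best protein match came from Nicotiana sylvestris for 4 copies (chromosomes 2, 14, 18 and 19) and from Nicotiana attenuata for the other 4. Each of the 3 pairs held 1 of either kind, but so did the chromosome 9 and 18 copies, so this does not set the pairs apart.

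Among descriptions shared by the surroundings of the chromosome 12 and 19 copies were mitogen-activated protein kinase kinase 2, a signalling kinase, probable protein phosphatase 2C 50, U-box domain-containing protein 34, BREVIS RADIX-like 4, THO complex subunit 6, which belongs to a complex for mRNA export, and the WD repeat protein VIP3. Of 9 descriptions that occurred once in each surrounding, 6 lay on opposite sides of the HARBI1 copies, 2 lay in the same window as one of the copies and 1 lay on the same side. The order of the loci thus ran largely in opposite directions along the identifiers of the 2 chromosomes. Distances in bases were not used here.

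Neighbours of the chromosome 12 and 19 copies did not share the size of their rise. Around the chromosome 12 copy, 1 of 26 tested neighbours was up-regulated and 1 down-regulated by limma, with a median log2 fold change of -0.20 and a range of -1.04 to 1.68. Around the chromosome 19 copy, 0 of 23 were up-regulated and 1 was down-regulated, with a median of 0.02 and a range of -1.02 to 0.81. An adjusted p under 0.05 without the fold threshold was reached by 16 of 26 and 7 of 23 neighbours, against 41.9% of all tested loci. The up-regulated neighbour, the uncharacterized Niben261Chr12g0684004, had an FPKM of 4.01, 4.60 and 4.10 at low NAA, and of 12.89, 16.97 and 18.03 at high NAA (log2 fold change 1.68, limma adjusted p = 0.000281). It lay 2 windows from the HARBI1 copy and had no counterpart by description near the chromosome 19 copy.

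**Figure D2:**
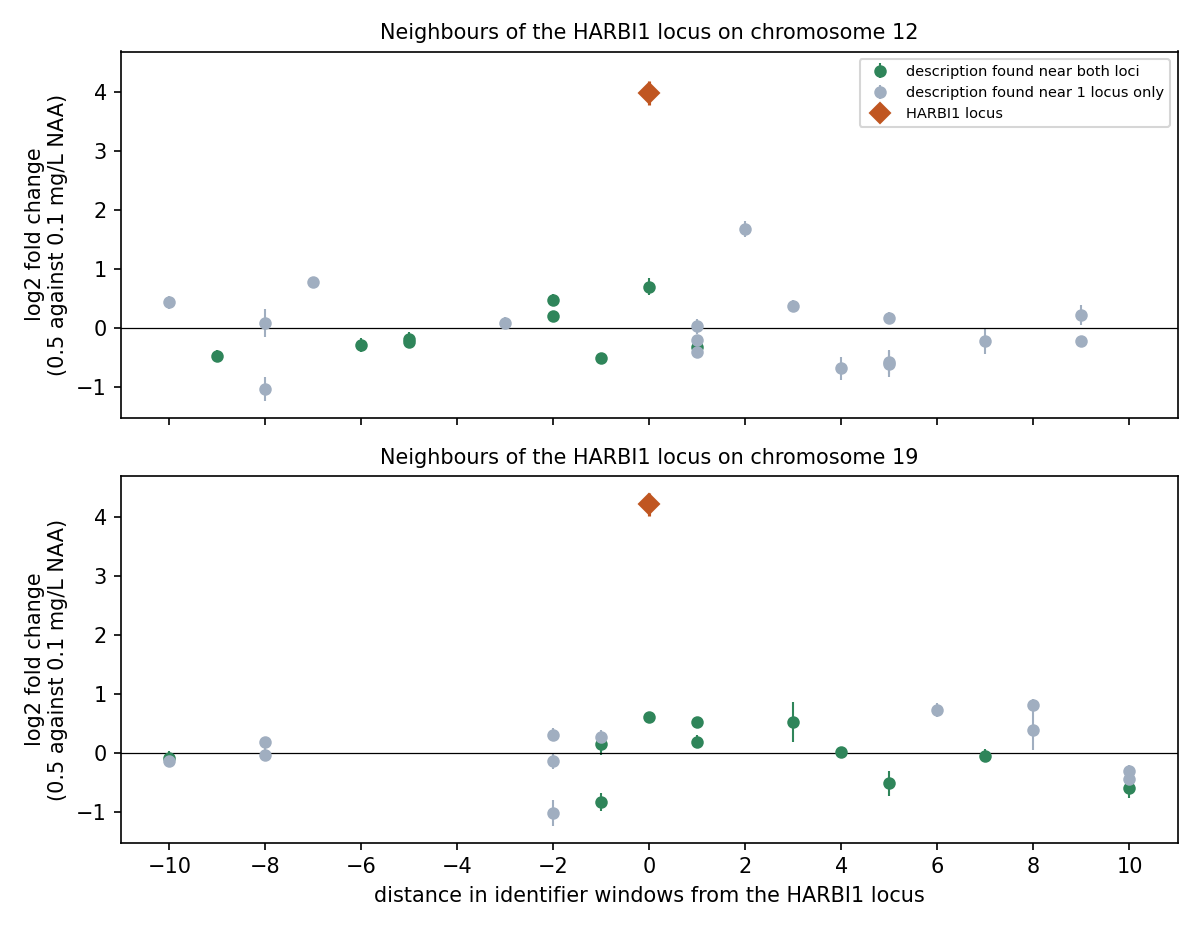
Log2 fold change (high against low NAA, bars are SE) of loci up to 10 identifier windows from the HARBI1 copies on chromosome 12 (top) and chromosome 19 (bottom), with loci whose description occurs near both copies in green. The HARBI1 copies stand at 3.98 and 4.21, and their neighbours lie between -1.04 and 1.68.

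The nearest loci by identifier rose slightly and each had a counterpart near the other copy. Niben261Chr19g0054001, described as probable protein phosphatase 2C 50, stands next to the chromosome 19 copy and had an FPKM of 18.48, 19.80 and 20.62 at low NAA, and of 32.17, 30.13 and 28.82 at high NAA. Its libraries did not overlap and it rose by a log2 fold change of 0.60 (limma adjusted p = 0.00122), while its counterpart near the chromosome 12 copy had 0.19 (limma adjusted p = 0.0978). Niben261Chr12g0682001, described as U-box domain-containing protein 34, stands next to the chromosome 12 copy and had an FPKM of 6.73, 7.53 and 8.60 at low NAA, and of 12.15, 11.48 and 15.55 at high NAA. Without overlap between treatments, it rose by 0.70 (limma adjusted p = 0.00594), while its counterpart near the chromosome 19 copy had 0.15 (limma adjusted p = 0.543). The differences between counterparts were not tested. Of the other shared descriptions, the uncharacterized LOC109228512 rose near both copies (0.48 and 0.53, limma adjusted p = 0.00496 and 0.00276) and the uncharacterized LOC104214458 fell near both (-0.51 and -0.84, limma adjusted p = 0.00130 and 0.00464). BREVIS RADIX-like 4 also fell near both copies (-0.47 and -0.60, limma adjusted p = 0.00593 and 0.0255).

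Within the other pairs with like surroundings the FPKM ratio of the copies differed between the treatments in these libraries. The FPKM ratio of the chromosome 2 copy to the chromosome 3 copy was 0.832, 0.648 and 0.779 at low NAA, and 1.15, 1.32 and 0.992 at high NAA. The ratio of the chromosome 14 copy to the chromosome 15 copy was 0.424, 0.421 and 0.567 at low NAA, and 0.763, 0.926 and 0.855 at high NAA. In both pairs every ratio was higher at high NAA, by 0.62 and 0.86 in the mean log2 ratio, whatever the scaling of the libraries, since a ratio within a library does not depend on it. The exact two-sided permutation test over the 6 libraries gave p = 0.1 for each of the 2 pairs (0.1 after Benjamini-Hochberg adjustment), the smallest value that 3 against 3 libraries allow, so this test cannot reach 0.05. These ratios were compared after the values had been seen, and how often other pairs of loci separate in this way was not counted. Of all single tested loci, 54.7% did not overlap between treatments. The chromosome 14 and 15 copies lay near or below an FPKM of 1, where few reads stand behind a value and that number cannot be read from FPKM.

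**Figure D3:**
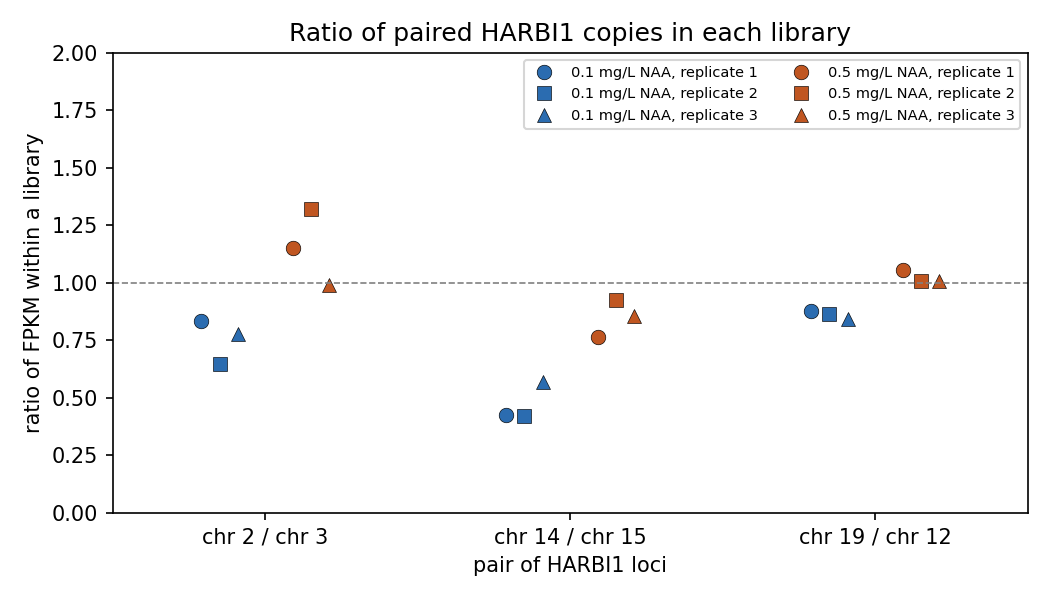
FPKM ratio of paired HARBI1 copies in each library at low NAA (blue) and high NAA (orange), with symbols for replicates and a dashed line at equal FPKM. In all 3 pairs the 3 ratios at high NAA lie above the 3 at low NAA, from 0.648 to 0.832 against 0.992 to 1.32 for chromosomes 2 and 3.

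A few other loci had nearly the same pattern over the 6 libraries as the chromosome 12 and 19 copies. Likeness was measured as the root mean square distance of log2(FPKM + 1) after subtraction of each locus mean, and it is a description, because the pattern had chosen the copies. By this measure the chromosome 12 and 19 copies lay 0.121 apart. Nearest to both copies was the uncharacterized Niben261Chr06g0730015, named after its values were seen, at a distance of 0.109 from the chromosome 12 copy and 0.115 from the chromosome 19 copy. It had an FPKM of 3.07, 3.27 and 3.00 at low NAA, and of 51.32, 86.38 and 71.56 at high NAA. At high NAA it was lowest in replicate 1 and highest in replicate 2, as were the HARBI1 copies. It was picked by its closeness over these same libraries, so the shared order is no separate finding.

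Of loci with a described protein, a pair named probable protein phosphatase 2C 25 and one named probable galacturonosyltransferase-like 10 came closest. Protein phosphatases 2C remove phosphate from serine and threonine residues and include negative regulators of stress and hormone signalling. Niben261Chr13g1054009, one of the phosphatase loci, lay 0.135 from the chromosome 12 copy and 0.238 from the chromosome 19 copy, with an FPKM of 10.67, 9.91 and 9.40 at low NAA, and of 100.54, 220.71 and 151.29 at high NAA. Niben261Chr10g1090005, the other phosphatase locus, lay at 0.213 and 0.312, with an FPKM of 7.86, 6.75 and 6.51 at low NAA, and of 70.55, 156.74 and 87.70 at high NAA. Both phosphatase loci were lowest in replicate 1 and highest in replicate 2 at high NAA, an order that their selection by closeness favours. The galacturonosyltransferase locus, Niben261Chr16g0438018, whose family acts in the synthesis of cell wall polysaccharides, lay at 0.187 and 0.301, with an FPKM of 4.53, 4.41 and 4.26 at low NAA, and of 46.19, 88.60 and 69.54 at high NAA. The next described locus was Niben261Chr16g0655004, an EGF domain-specific O-linked N-acetylglucosamine transferase-like protein, for the chromosome 12 copy (0.342). For the chromosome 19 copy it was the ethylene-responsive transcription factor 5 locus Niben261Chr08g0552004 (0.369), which did not share the library order and was highest in replicate 1 at high NAA (113.42, 94.77 and 104.41 FPKM). The other 6 HARBI1 copies lay 1.90 to 2.27 away, at ranks of 10760 to 31073 when all 39825 loci, tested or not, were ordered by distance.

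**Figure D4:**
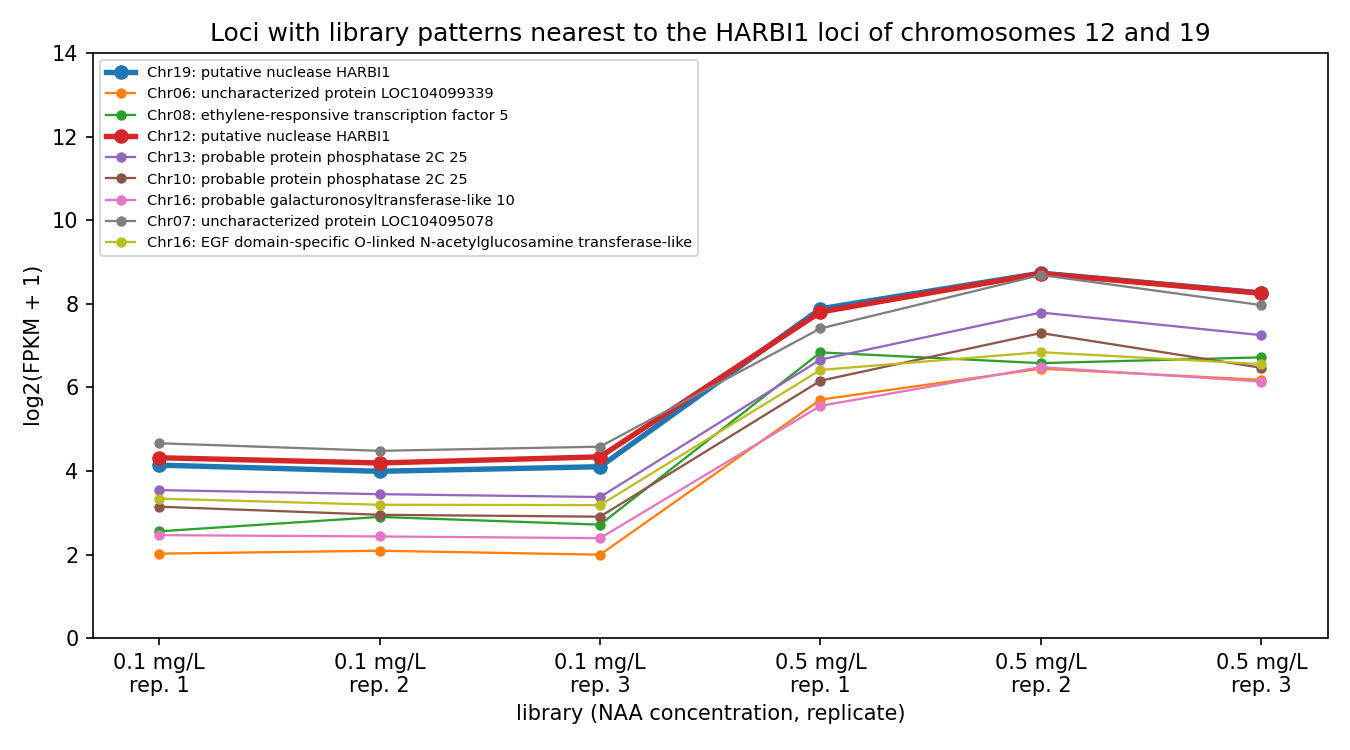
Log2(FPKM + 1) in each of the 6 libraries (NAA concentration and replicate) for the HARBI1 copies of chromosomes 12 and 19 (thick lines) and the loci with the nearest patterns (thin lines, which only join the values of a locus). The HARBI1 lines nearly coincide. The other loci were picked for closeness to them, and most share their rise and the high value of replicate 2 at high NAA.

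Loci of related function, taken by protein description, did not rise as the chromosome 12 and 19 copies did. The 2 loci described as ALP1, the plant Harbinger-derived protein, did not pass the test in limma, although 1 of them had an unadjusted p under 0.05. Niben261Chr04g1571011 had an FPKM of 2.49, 3.73 and 3.58 at low NAA, and of 3.28, 3.14 and 3.49 at high NAA (log2 fold change 0.02, limma adjusted p = 0.909). Niben261Chr13g0605001 had an FPKM of 14.03, 13.45 and 14.52 at low NAA, and of 15.14, 16.67 and 17.13 at high NAA (log2 fold change 0.21, limma adjusted p = 0.0817). The first overlapped between treatments, and the second did not.

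Of 28 tested loci for Myb/SANT-like and trihelix proteins 5 were up-regulated (17.9%, against 3.24% of all tested loci), 0 were down-regulated, and their median log2 fold change was 0.16 against 0.02 over all loci. All 5 were described as trihelix transcription factors, which bind GT elements of promoters through a domain related to Myb, and none as a Myb/SANT-like protein. How many of the 28 were Myb/SANT-like was not counted, so nothing follows for those proteins. The largest rise was that of the GT-3b-like locus Niben261Chr16g0820003, from 4.40, 6.55 and 7.43 FPKM at low NAA to 16.80, 18.44 and 23.37 at high NAA (log2 fold change 1.54, limma adjusted p = 0.000974). It was followed by the GT-2-like locus Niben261Chr17g0433001, from 3.49, 3.89 and 3.21 FPKM to 8.24, 9.95 and 9.14 (log2 fold change 1.16, limma adjusted p = 0.000498). Neither overlapped between treatments.

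Among proteins derived from other DNA transposons no locus was up-regulated or down-regulated, where 5.86% of all tested loci were called, 41.9% had an adjusted and 50.8% an unadjusted p under 0.05. In limma 0 of 13 tested loci for hAT-derived proteins passed both thresholds (median log2 fold change 0.27, with 3 at an adjusted and 4 at an unadjusted p under 0.05), and 1 was up-regulated with a pseudocount of 0.1. For MULE-derived proteins it was 0 of 30 (median 0.13, with 8 at an adjusted and 11 at an unadjusted p under 0.05). A further 3 loci, which the words of the hAT and MULE lists did not take in, were described as a transposase, a transposon protein or a retrovirus-related polyprotein. Of these 3, only the putative AC transposase Niben261Chr08g0088012 was expressed enough to test, with an FPKM of 4.46, 4.71 and 4.32 at low NAA, and of 6.79, 6.59 and 6.34 at high NAA (log2 fold change 0.46, limma adjusted p = 0.00728).

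Among genes of DNA demethylation and anti-silencing, 1 of 33 tested loci was up-regulated (3.03%, against 3.24% of all tested loci) and 0 down-regulated, with a median log2 fold change of 0.17. In limma 17 of the 33 had an adjusted p under 0.05 (13 higher and 4 lower at high NAA) and 19 an unadjusted one. Over all tested loci these shares were 41.9 and 50.8%, and 7038 loci were higher and 6567 lower at an adjusted p under 0.05 in limma. The up-regulated locus, Niben261Chr06g0259004, is described as DEMETER-like, after an Arabidopsis DNA glycosylase that removes methylated cytosine. Its FPKM was 1.85, 2.17 and 1.94 at low NAA, and 4.96, 6.28 and 6.01 at high NAA, without overlap (log2 fold change 1.17, limma adjusted p = 0.000646). For Polycomb repressive complex 2, 0 of 16 tested loci passed both thresholds in either direction (median -0.03, or 0.14 after rescaling to TPM, with 7 at an adjusted and 9 at an unadjusted p under 0.05 in limma). Over all 7 lists, 6 of 123 tested loci (4.88%) were up-regulated and 0 down-regulated, against 3.24 and 2.62% of all tested loci. With a pseudocount of 0.1 the lists held 11 up-regulated and 2 down-regulated loci, and all tested loci 1737 and 1218.

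The table gives no functional term for any HARBI1 copy. Gene ontology terms were attached to 0 of the 8 copies, against 52.6% of all loci, and KEGG terms to 0 of 8, against 34.5%. A summary of these libraries by annotated terms therefore holds none of the 8 copies, including the chromosome 19 copy, which had the largest log2 fold change of the tested loci on the log2(FPKM + 1) scale. As a ratio of mean FPKM its rise (20.2 times) was smaller than that of the weaker Niben261Chr06g0730015 (22.4 times).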

How the data were processed

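The 3 libraries at 0.1 mg/L NAA (low NAA) and the 3 at 0.5 mg/L NAA (high NAA) were grouped by their labels. The authors deposited 1 table of FPKM values with protein descriptions. The study describes alignment with HISAT2 and quantification with RSEM for its later callus libraries. For the 2-week libraries the aligner, the counter and the assignment of shared reads are not given in the sources used here, and the table holds no read counts, so the depth is unknown beyond a relative estimate.

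Loci averaging 0.5 FPKM or more (32443 of 39825) were tested on log2(FPKM + 1) with limma 3.58.1 in R 4.3.3, using moderated variances with a mean trend and Benjamini-Hochberg adjustment over all tested loci. This scale understates changes of weakly expressed loci. On simulated data the test recovered 186 of 200 changed loci, with 2 false calls among 31886. The changed loci of the simulation were all well expressed, changed by more than the fold threshold, and every other locus was left unchanged. Weakly expressed loci with a change and changes below the threshold were not simulated, so these figures do not cover them. The thresholds were an adjusted p of 0.05 and a log2 fold change of 1.

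Named were all 8 HARBI1 loci, the largest changes of each list, the 5 described loci nearest in pattern to each singled-out copy, and loci of the same identifier window. The members, lists and rules were chosen with earlier results of these data known, and other trihelix, neighbouring and uncharacterized loci were named after their values were seen. The 8 loci carry N. benthamiana identifiers, so the 0 matches in the N. tabacum reference table say nothing of the loci. No sequence was used here. Alternatives were another pseudocount, other filters, TPM and median-of-ratios scaling, a replicate block, no trend, leaving out each library, and, chosen after seeing the data, other neighbour windows.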

Additional observations from a re-analysis of the deposited data

How the results depend on the processing

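Of 77 values of the 6 HARBI1 copies not chosen for their rise, 75 kept their direction and their side of the threshold under the alternatives. The exceptions came with TPM scaling, where the log2 fold change of the chromosome 9 copy (Niben261Chr09g1300004) turned to 0.10 and that of the chromosome 18 copy (Niben261Chr18g0187009) was 0.27 and passed the adjusted p. TPM scaling also gave 1640 up-regulated and 519 down-regulated loci (76.0% up, against 55.3% with FPKM). Leaving out 1 library in turn gave log2 fold changes of 3.75 to 4.20 for the chromosome 12 copy and 3.99 to 4.42 for the chromosome 19 copy. The chromosome 14 copy was not tested at a mean FPKM of at least 1.

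A pseudocount of 0.1 gave 2955 called loci (1902 with 1), of which 1737 were up-regulated and 1218 down-regulated, and 13 called loci in the lists (11 up and 2 down, against 6 and 0 with 1). Leaving out 1 library gave 1558 to 2372 called loci overall and 5 to 6 in the lists. With 5 identifier windows the surroundings of the chromosome 12 and 19 copies shared 8 descriptions, and with 20 windows 16.

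Replicate numbers are shared between treatments. Deviations of same-numbered libraries correlated at 0.00958 to 0.0216 and those of other libraries at -0.0103 to 0.000297. All of these are near 0, so the main fit used no pairing, but they cannot tell whether same-numbered libraries were handled together. With a replicate block 1055 loci were up-regulated and 852 down-regulated (1051 and 851 without it), and no call of these 6 copies changed. No read counts stand beside the FPKM values, which limits what can be said of the weakest copies on chromosomes 14 and 15.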
